A study of Mus musculus with 6 samples.

Results

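The genes described here encode the mitochondrial ribosome and the factors that drive translation on it. They were the protein-coding genes of the count table whose symbol begins with Mrpl or Mrps followed by a digit (49 and 29 genes), together with Tsfm, Tufm, Gfm1, Gfm2, Mtif2, Mtif3, Mtrf1, Mtrf1l and Mrrf. The rule found 87 genes of 57132 in the table, and all 87 passed the filter on low counts that left 10554 genes to be tested. By the known structure of the mammalian mitoribosome, 51 encode proteins of the large subunit, including Mrps30 and Mrps18a in spite of their symbols, 26 encode proteins of the small subunit, 9 are translation factors, and Mrps36 belongs to neither subunit. The 87 genes lie on 17 chromosomes.

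Mitochondria keep their own ribosomes, which translate the few mRNAs of the mitochondrial genome into core subunits of the respiratory chain and ATP synthase. The ribosomal RNAs are transcribed inside the organelle, whereas every ribosomal protein and translation factor is encoded in the nucleus, made in the cytosol and imported. Large and small subunits assemble separately and join on an mRNA, after which elongation, release and recycling factors act in turn.

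The measurements were mRNA-seq libraries from mouse bone marrow-derived dendritic cells, cells of the immune system that arise when marrow progenitors are cultured in the cytokine GM-CSF. Femora and tibiae of C57BL/6 females 6 to 8 weeks old supplied the marrow, dialyzed fetal bovine serum and 15 ng/mL GM-CSF were present in every culture, feeding took place on days 2 and 4, and RNA was isolated on day 5. The 0Q group received medium alone and the 100Q group received medium with 100 nM queuine, with 3 libraries each. Queuine is the base used to build queuosine, a modified nucleoside in the anticodon of the tRNAs that read Asn, Asp, His and Tyr codons, among them such tRNAs of mitochondria. The cultures were plated in triplicate, and whether they came from separate animals is not stated in the labels, and p-values then reflect no more than the spread among the 6 cultures, part of which may be technical.

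Total counts ranged from 3675931 to 6755398 over the 0Q libraries and from 4484793 to 19386617 over the 100Q libraries, the deepest being 100Q replicate 3. A count of 3 corresponded to 0.155 to 0.816 CPM (counts per 1e6 counts of the library), which limits counting error only. Nuclear rRNA took 0.244% of the counts in 0Q replicate 1 and 0.120% to 0.141% in the other 5 libraries. All 12 dendritic cell markers examined were detected, 8 with a log2 change from 0Q to 100Q above 0 and 4 below, and 0 of the markers of any list passed the adjusted threshold. The groups of 4 dendritic cell markers did not overlap (33.3% of the list, against 8.24% of all tested genes). Itgax, which encodes CD11c, was one of them at 98.6 ± 26.8 and 140.2 ± 14.7 CPM (0Q, then 100Q; SD, n = 3 each), as were Irf4 (11.5 and 14.3 CPM), Cd74 (21.3 and 26.2 CPM) and, in the other direction, Kmo (12.9 and 6.21 CPM). H2-Aa, an MHC class II chain, had 577 ± 91.9 and 580.3 ± 76.5 CPM. Zbtb46 and Flt3 were low in both groups, at 1.17 and 2.46 CPM and at 1.12 and 3.33 CPM, and their groups overlapped. Of the 9 granulocyte markers 8 had estimates below 0 (median -0.22). In 3 of them, Camp, Ngp and Ly6g, the groups did not overlap (33.3% of the list, against 3.84% of all tested genes in that direction). The granulocyte list summed to 16888 to 19812 CPM in 0Q and 14088 to 17173 CPM in 100Q. All 5 mast cell or basophil markers had estimates below 0, with sums of 221 to 333 and 202 to 244 CPM. Macrophage or monocyte markers summed to 18471 to 20605 and 18490 to 22281 CPM. RNA of other myeloid cells was therefore measured too, and its part in the values below was not tested. Klf1 of the erythroid lineage and Cd3e of T cells had no counts in any library. Cd3e and Klf1 were the only entries of their marker lists at 0 throughout. The erythroid list summed to 39.8 to 43.3 CPM in 0Q and 37.1 to 54.8 CPM in 100Q. For the T, B or NK cell list the sums were 40.6 to 55.3 and 28.7 to 53.3 CPM, so RNA assigned to both lists was measured. In such bulk samples fewer cells of a type and less RNA per cell cannot be told apart.

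Because queuosine sits in tRNAs that read codons ending in U or C, the coding sequences themselves were inspected first. Over the 87 canonical transcripts, 2682 codons stood for Asn, Asp, His or Tyr, and 44.0% of them ended in U (NAU), against 46.2% over all tested genes. Stretches of 30 codons are shown for 4 members, each the stretch of its coding sequence (GENCODE mouse release 39, GRCm39) richest in these codons, which are in capitals. They are the elongation factor gene with the smallest p, the pair of ribosomal protein genes with the next smallest, and the member with the highest NAU share.
Tsfm, codons 147 to 176: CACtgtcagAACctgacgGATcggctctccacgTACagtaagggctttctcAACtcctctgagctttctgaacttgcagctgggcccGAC
Mrpl28, codons 42 to 71: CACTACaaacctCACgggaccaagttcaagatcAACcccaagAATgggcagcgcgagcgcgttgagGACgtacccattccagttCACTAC
Mrpl45, codons 149 to 178: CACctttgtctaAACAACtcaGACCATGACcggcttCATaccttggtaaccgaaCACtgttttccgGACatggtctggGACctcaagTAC
Mrpl50, codons 82 to 111: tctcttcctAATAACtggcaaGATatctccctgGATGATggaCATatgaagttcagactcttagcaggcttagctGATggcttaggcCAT

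In these stretches 1 of 6 such codons of Tsfm ended in U, written T in the DNA, compared with 1 of 8 in Mrpl28, 2 of 11 in Mrpl45 and 7 of 8 in Mrpl50. Over the whole coding sequence the NAU share was 24.2% in Tsfm (8 of 33 codons), 21.6% in Mrpl28 (8 of 37), 53.8% in Mrpl45 (21 of 39) and 72.7% in Mrpl50 (16 of 22). The members therefore covered a wide range of codon choice. Among the 57 members with at least 20 such codons the median share was 44.0%, equal to the 44.0% median of the 8743 tested genes with that many, and 28 members lay above it. The lowest shares among these were those of Mrps24 (20%) and Mrps34 (21.4%), both small subunit proteins, and the highest after Mrpl50 were those of Mrps22 (68.8%) and Mrpl15 (66.7%). Across all 87 genes, also those with fewer than 20 such codons, NAU share had a Spearman rho of 0.13 with the log2 fold change from 0Q to 100Q. The GC content of the transcript had a rho of -0.22 with it. Few codons or few counts in a gene make such a rho imprecise, and whether codon choice and fold change were related was not tested. These correlations are across genes that share the same 6 libraries and are given as descriptions.

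mRNAs of most ribosomal proteins lay above the middle of all tested genes, whereas the place of the factors depended on the gene length used. CPM per kilobase of annotated exon scale levels for gene length, so that comparison between genes depends on the length taken. On that scale the large subunit was led by Mrpl20 (184 CPM per kb), Mrpl18 (152) and Mrpl50 (127), and the small subunit by Mrps14 (103), Mrps33 (80.2) and Mrps18c (67.2). The lowest in the large subunit were Mrps30 (0.94 CPM per kb) and Mrpl37 (1.20), and in the small subunit Mrps27 (0.62) and Mrps2 (0.91). Of the 51 large subunit and 26 small subunit genes, 44 and 21 lay above the middle of all tested genes, with medians of 12.2 and 9.80 CPM per kb against 2.39 CPM per kb over all tested genes. The 9 factors had a median of 1.73 CPM per kb, and 4 of them lay above the middle. mRNAs of proteins that sit in the same particle thus differed widely in level.

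**Figure D1:**
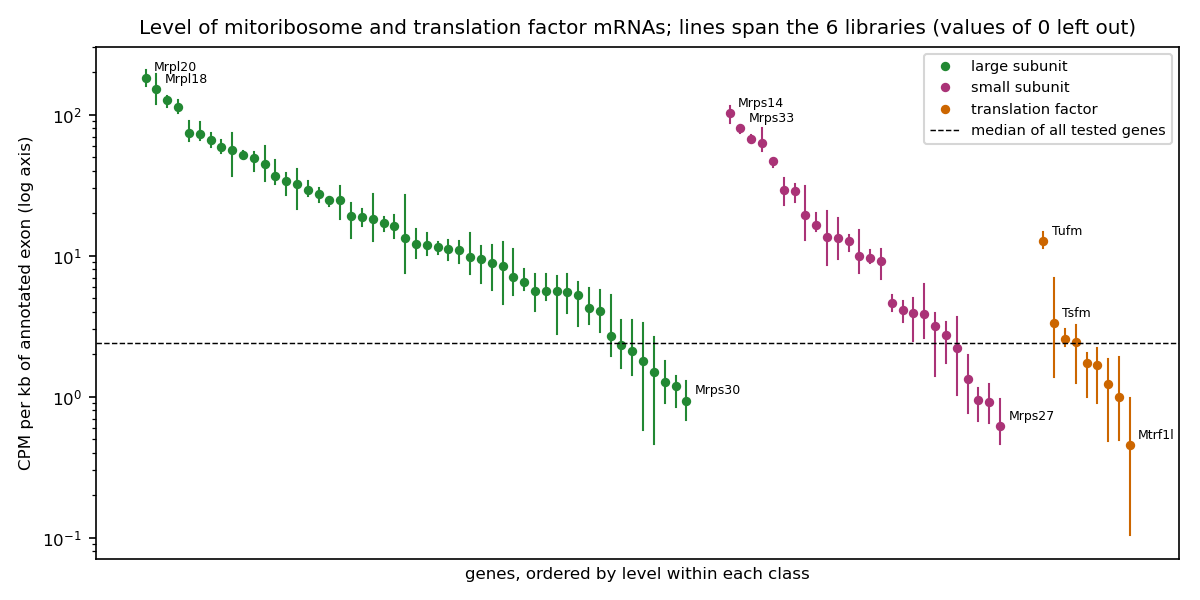
Mean level of each gene in CPM per kilobase of annotated exon, on a log axis, with genes ordered by level within the large subunit, the small subunit and the translation factors; lines run from the lowest to the highest library. Mrpl20 leads the large subunit at 184 and Mrps30 closes it at 0.94, while the dashed line marks the median of all tested genes.

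The order of levels depended on the gene length used. With the length of the canonical transcript in place of all annotated exons, an alternative chosen after the data were seen, Mrpl20 (639.9 CPM per kb), Mrpl42 (545) and Mrpl21 (283) led the large subunit and Mrps21 (372), Mrps33 (226) and Mrps14 (174) led the small subunit. Mrps30 (2.17 CPM per kb) and Mrps2 (1.06) were then lowest in their subunits. The factors had a median of 7.38 CPM per kb on this scale against 4.50 over all tested genes, and 6 of the 9 lay above the middle. The canonical scale spanned 605-fold over the 77 ribosomal proteins, against 101-fold in CPM without scaling for length. Transcript length had a rho of -0.43 with the canonical level and of -0.01 with CPM over these genes. Both per-kilobase scales ordered them alike (Spearman rho of 0.90). Shorter coding sequences went with higher levels on the canonical scale, with a rho of -0.54 over the 77 ribosomal proteins and of -0.49 over 9561 tested genes with a coding sequence. Neighbours in the exon-based order were seldom apart: the libraries of adjacent genes overlapped in 49 of 50 pairs of the large subunit and in 20 of 25 of the small.

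Without any scaling for length the members ranged from 2.75 CPM for Mtrf1l to 521.8 CPM for Mrps14, which binds the small subunit RNA. Mrps14 had 561, 448 and 561 CPM in 0Q replicates 1, 2 and 3 and 592, 459 and 511 CPM in 100Q. Its groups overlapped throughout, with a log2 fold change of -0.01 (SE 0.13).

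The main question was whether queuine supply went with different levels of these mRNAs. None of the 87 genes differed between 100Q and 0Q at an adjusted p under 0.05 by edgeR's quasi-likelihood test with Benjamini-Hochberg adjustment, as was the case for all 10554 tested genes (0%), with 0.999 as the lowest adjusted value. Unadjusted, 3 members had p under 0.05 (3.45%): Tsfm on the higher side, and Mrpl28 and Mrpl45 on the lower side. Over all tested genes 2.93% met that limit, 1.77% higher and 1.16% lower, so the members' share was near the background. DESeq2 and limma-voom also called 0 genes at an adjusted p under 0.05, with 356 and 310 genes at an unadjusted p under 0.05 against 309 for edgeR, and 4 members each. In 5 members (5.75%) the libraries of the groups did not overlap, against 8.24% of all tested genes. Tsfm and Mrpl36 were the higher ones (4.41% of all tested genes) and Mrpl28, Mrps11 and Mrps17 the lower ones (3.84%).

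**Figure D2:**
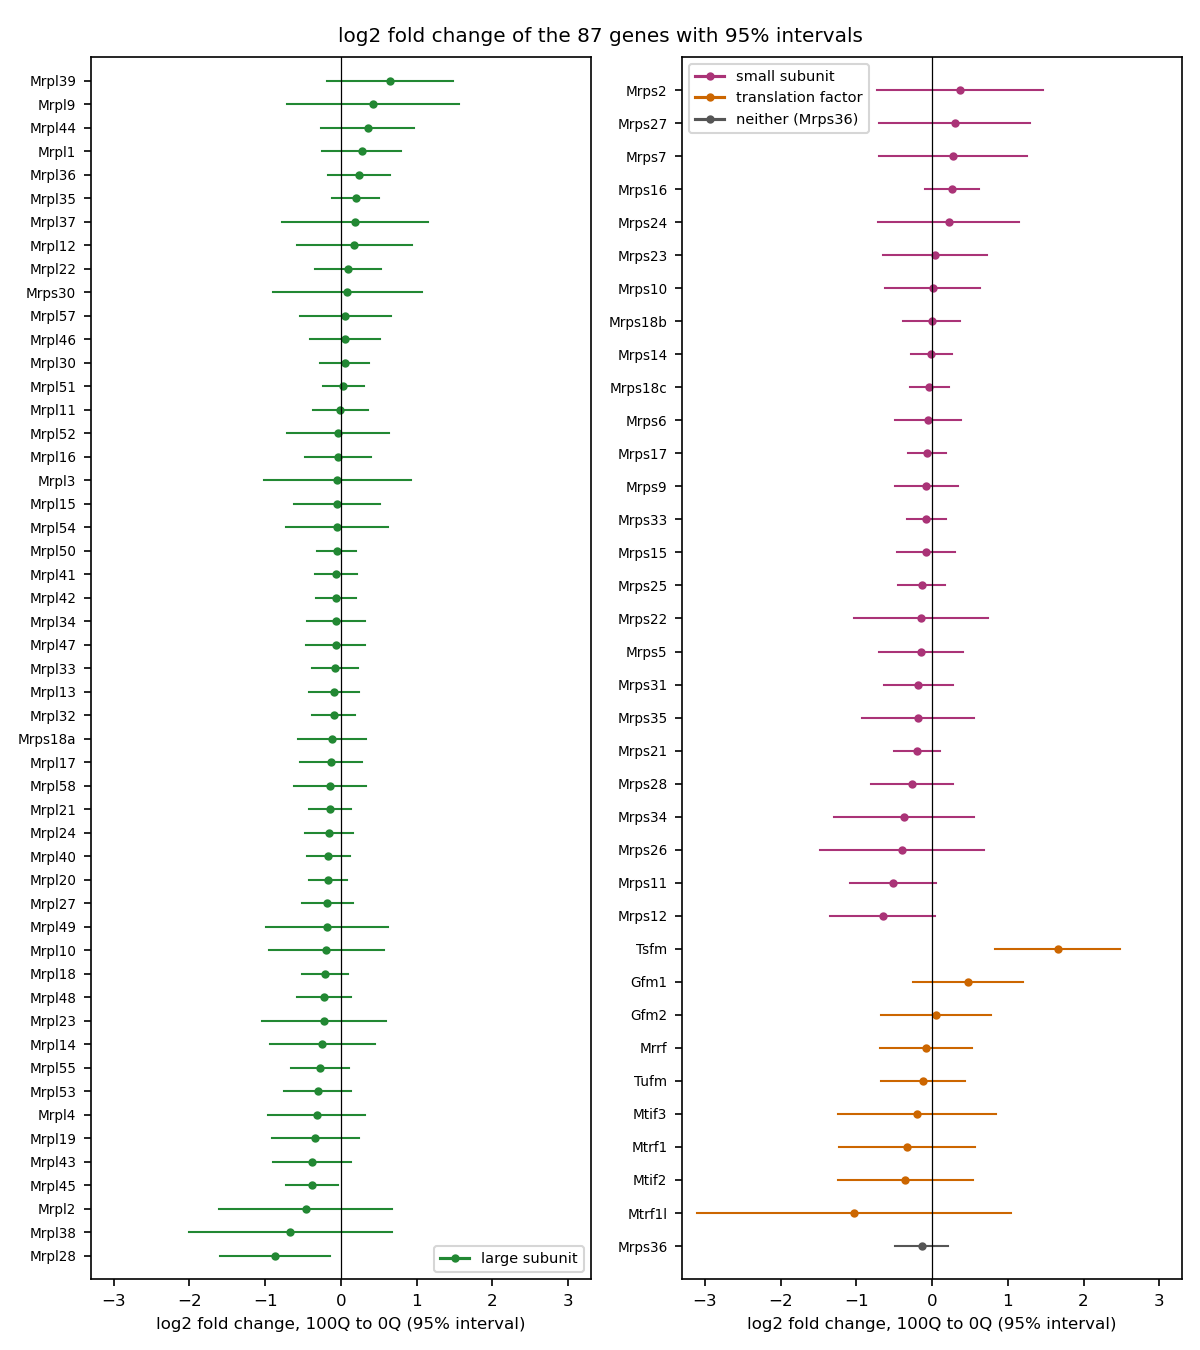
log2 fold change from 0Q to 100Q of each of the 87 genes with its 95% interval from edgeR, ordered by value within the large subunit (left panel) and the small subunit, the translation factors and Mrps36 (right panel). Of the 87 intervals 84 include 0, and the exceptions are Tsfm above 0 and Mrpl28 and Mrpl45 below 0.

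Elongation factors deliver aminoacyl-tRNA to the ribosome and move it along the mRNA. Tsfm encodes EF-Ts, the exchange factor that reloads the tRNA carrier EF-Tu with GTP, and lies on chromosome 10 from 126847441 to 126866717 on the minus strand (GRCm39). Tsfm had 5.48, 7.33 and 5.28 CPM across 0Q replicates 1, 2 and 3, against 26.2, 13.5 and 17.97 CPM across 100Q replicates 1, 2 and 3, from 29, 52 and 19 counts and 138, 64 and 340 counts. Every 100Q library stood above every 0Q library. The log2 fold change from 0Q to 100Q, called the log2 change from here on, was 1.66 (SE 0.39, 95% interval 0.83 to 2.49), with an edgeR p of 0.000551, the third smallest of all tested genes, and an adjusted p of 0.999. It therefore did not pass the test. Over 14 alternatives the lowest estimate was 1.37, when 100Q replicate 1 was left out, and the highest 1.85, when 100Q replicate 2 was, the unadjusted p stayed under 0.05 in all 14, and the adjusted p ran from 0.162 (DESeq2) to 1.00. Exons of Avil overlap Tsfm on the opposite strand, and Avil had 0 counts in the 6 libraries.

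EF-Tu itself is the product of Tufm. Tufm had 29.1, 32.3 and 24.7 CPM across 0Q against 25.5, 25.9 and 28.1 CPM across 100Q, with overlapping groups and a log2 change of -0.12 (SE 0.26, 95% interval -0.67 to 0.43). Gfm1, which encodes the translocation factor EF-G1, had 9.07, 20.03 and 15.6 CPM across 0Q against 23.4, 18.3 and 20.6 CPM across 100Q. Its groups overlapped through 0Q replicate 2, and the log2 change of 0.48 (SE 0.35) became 0.22 without 0Q replicate 1 and 0.76 without 0Q replicate 2. Whether Tsfm differed from Tufm or Gfm1 in its change was not tested.

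Initiation, release and recycling factors overlapped between the groups in every case. Mtif2 and Mtif3, which encode the initiation factors, had 10.0 ± 0.97 and 7.83 ± 2.34 CPM, and 10.2 ± 7.30 and 8.84 ± 2.95 CPM, in the respective groups (0Q, then 100Q; SD, n = 3 each). Leaving out 0Q replicate 1 turned the log2 change of Mtif3 from -0.20 to 0.53, leaving out 0Q replicate 3 gave -0.53, and leaving out 100Q replicate 1 moved that of Mtif2 from -0.35 to -0.14. Mtrf1, a release factor, had 13.8, 11.1 and 20 CPM across 0Q against 12.4, 5.27 and 17.1 CPM across 100Q. Its log2 change of -0.33 (SE 0.43) became -0.01 without 100Q replicate 2. Mtrf1l, which encodes the release factor for the standard stop codons, was the least abundant member, with 27, 42 and 0 counts in 0Q and 16, 3 and 34 counts in 100Q. At that depth its log2 change of -1.03 had a 95% interval from -3.10 to 1.04, and leaving out single libraries moved it between -1.58 (0Q replicate 3) and -0.53 (0Q replicate 2). Gfm2 and Mrrf, whose products EF-G2 and the recycling factor split the ribosome after release, had 21.4 ± 8.63 and 22.5 ± 5.76 CPM, and 23.1 ± 3.06 and 22.0 ± 2.88 CPM. Gfm2 lay at a log2 change of 0.05 (SE 0.35), but at -0.24 when 0Q replicate 3 was left out and at 0.28 when 0Q replicate 2 was. Mrrf lay at -0.08 (SE 0.29).

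**Figure D3:**
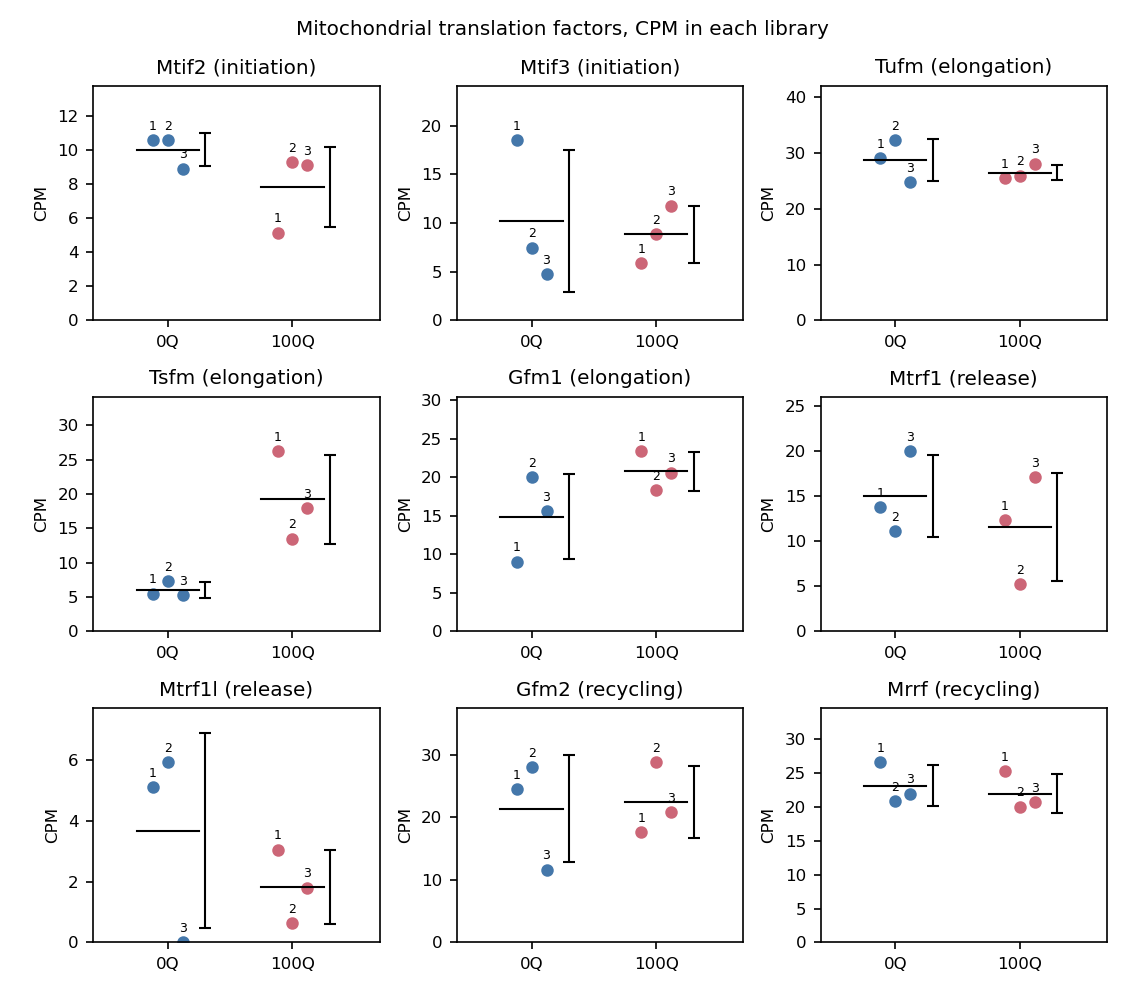
CPM of the 9 translation factors in each library, with replicate numbers beside the points, the group mean as a horizontal line and the SD as an error bar (n = 3). Tsfm shows 5.28 to 7.33 CPM in 0Q and 13.5 to 26.2 CPM in 100Q, and the groups of the other 8 factors overlap.

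The members whose profile over the 6 libraries was most like that of Tsfm were Mrpl1 (Pearson r of 0.78 on log2(CPM + 1)), Mrps16 (0.77), Gfm1 (0.73), Mrpl37 (0.64) and Mrps24 (0.62). With 6 libraries in 2 groups these coefficients mix the group difference with the spread within groups, and they are given as descriptions.

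Of the 51 large subunit genes, 37 lay below 0 and 14 above, at a median log2 change of -0.08, and none passed the test. Mrpl28 (chromosome 17, 26342469 to 26345588, plus strand) had 45.5, 18.8 and 23.3 CPM across 0Q against 12.7, 17.3 and 17.7 CPM across 100Q. The groups did not overlap, and 0Q replicate 1 alone stood far above the rest. Its log2 change of -0.87 (SE 0.35, edgeR adjusted p = 0.999) became -0.39 without 0Q replicate 1, with an edgeR p of 0.268. Mrpl45 (chromosome 11, 97206542 to 97232865, plus strand), which encodes a protein at the site where the ribosome meets the inner membrane, had 343, 289 and 254 CPM across 0Q against 266, 171 and 241 CPM across 100Q. Its groups overlapped, and the log2 change was -0.38 (SE 0.16, edgeR adjusted p = 0.999). The p exceeded 0.05 without 0Q replicate 1 or without 100Q replicate 2, the latter at a log2 change of -0.23.

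The other large subunit genes with the smallest p values overlapped between the groups, except Mrpl36. Mrpl39 had 7.74, 10.3 and 8.61 CPM across 0Q against 9.32, 19.2 and 13.5 CPM across 100Q, and its log2 change of 0.65 (SE 0.40) became 0.36 without 100Q replicate 2. Mrpl44, an RNase III-like protein of the large subunit, had 29.7, 21.0 and 27.8 CPM across 0Q against 32.1, 45.3 and 23.4 CPM across 100Q. Its log2 change of 0.35 (SE 0.29) became 0.07 without 100Q replicate 2. In both genes 100Q replicate 2 was the highest library. Mrpl36 had 55.5, 61.6 and 59.4 CPM across 0Q against 62.9, 83.0 and 62.4 CPM across 100Q. The groups were apart, though by less than 1 CPM, and the log2 change of 0.23 (SE 0.19) became 0.08 without 100Q replicate 2. Mrpl35 lay at 0.20 (SE 0.15), Mrpl43 at -0.38 (SE 0.24) and Mrpl18 at -0.21 (SE 0.15), with -0.13 for Mrpl43 and -0.07 for Mrpl18 without 0Q replicate 1. Mrpl20 had 531, 473 and 550.3 CPM across 0Q against 453, 428 and 498 CPM across 100Q, a log2 change of -0.17 (SE 0.12).

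Of the 26 small subunit genes, 19 lay below 0 and 7 above, with a median log2 change of -0.07, and 0 reached an unadjusted p under 0.05 by edgeR. Mrps12, the protein of the decoding centre, had 18.3, 24.96 and 31.1 CPM across 0Q against 20.5, 13.9 and 13.0 CPM across 100Q, and its groups overlapped through 0Q replicate 1. Its log2 change was -0.65 (SE 0.33), with an edgeR p of 0.062. Mrps11 had 29.3, 31.3 and 46.1 CPM across 0Q against 22.8, 25.1 and 26.2 CPM across 100Q. All 100Q libraries of Mrps11 lay below all 0Q libraries, and the log2 change of -0.52 (SE 0.27) became -0.30 without 0Q replicate 3. Mrps16 had 113, 97.6 and 84.7 CPM across 0Q against 133, 110.0 and 112 CPM across 100Q, a log2 change of 0.26 (SE 0.17) that became 0.16 without 100Q replicate 1. Mrps17 had 312, 312 and 311 CPM across 0Q against 304, 277 and 309 CPM across 100Q, groups that did not overlap at a log2 change of only -0.07 (SE 0.12).

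The paralogs Mrps18a, Mrps18b and Mrps18c descend from 1 bacterial protein and occupy different places, with Mrps18a in the large subunit and the others in the small subunit. On the CPM scale they had 49.4 ± 8.07, 89.0 ± 10.0 and 283 ± 12.9 for 0Q against 45.5 ± 3.12, 88.5 ± 12.9 and 275 ± 14.7 for 100Q (SD, n = 3 each). Their log2 changes were -0.11 (SE 0.21), -0.01 (SE 0.18) and -0.04 (SE 0.12). Mrps36, now counted with the oxoglutarate dehydrogenase complex, lay at -0.14 (SE 0.17).

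The members leaned slightly below 0 as a whole: 63 of 87 (72.4%) had negative estimates against 50% of all tested genes, and their median log2 change was -0.08 against 0.00. Abundance has to be read beside this. Among all tested genes at 100 CPM or more, 67.8% of 1328 were negative, at a median of -0.06, and of the 24 members at that level 20 did, with a median of -0.09. At 30 to 100 CPM the figures were 20 of 24 members with a median of -0.08, and 51.3% of 1910 genes with a median of -0.01. Under 30 CPM they were 23 of 39 members with a median of -0.08, and 46.4% of 7316 genes with a median of 0.04. The count below 0 moved with the libraries used. Without 0Q replicate 1 there were 49 members below 0 and the median was -0.04. Without 0Q replicate 2 there were 65 and the median was -0.15. The shares and medians of all tested genes in these fits are not given here, so the counts do not place the lean in 1 library. With library totals alone as scaling, 58 members were below 0, with a median of -0.04 against 0.04 over all genes. In 0Q replicate 1 the members' median deviation from their mean over the 6 libraries was 0.12 on the log2 scale, the highest of the 6 libraries. Their deviation went up with transcript GC content there (rho of 0.20) and down in the other 5 (rho of -0.15 to -0.03). The deviations of a gene sum to 0 over the 6 libraries, so the signs of these rho values are not independent. Over all tested genes the GC rho in 0Q replicate 1 was -0.03. With transcript length the rho there was -0.135 over the members and -0.212 over all tested genes, each the lowest of the 6 libraries. Median transcript length was 1820 bases for the members against 3143.5 for all tested genes, and the part of length in the lean was not tested. Granulocyte and mast cell or basophil markers had medians below 0 as well (-0.22 and -0.40), and their part in the lean, like that of the composition of 0Q replicate 1, was not tested.

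**Figure D4:**
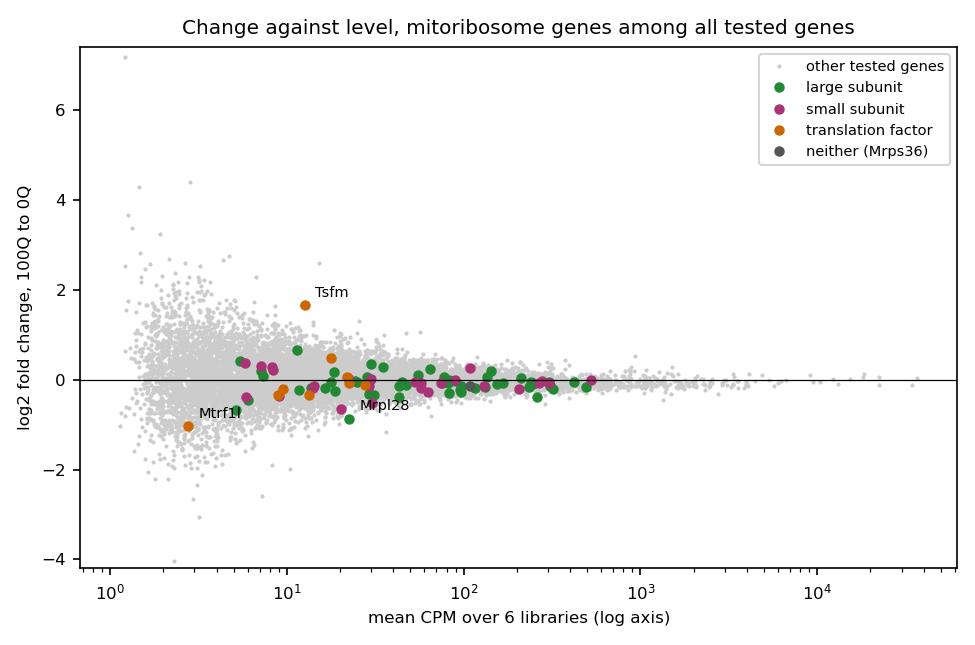
log2 fold change from 0Q to 100Q against the mean CPM over 6 libraries (log axis) for all tested genes in grey and the 87 members in colour by class. The member furthest from 0 is Tsfm at 1.66, while tested genes under 30 CPM run from -4.03 to 7.18. The spread narrows as the level rises.

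Summed levels showed the same small size. Large subunit mRNAs summed to 5989, 5043 and 5548 CPM across 0Q against 5106, 4829 and 5430 CPM across 100Q (means 5526 ± 473 and 5121 ± 301). Small subunit mRNAs summed to 2546, 2304 and 2567 CPM across 0Q against 2466, 2183 and 2423 CPM across 100Q. Both sums overlapped between the groups. The ratio of large to small subunit mRNA was 2.23 ± 0.10 for 0Q against 2.17 ± 0.09 for 100Q (SD, n = 3 each). As a share of library totals without TMM scaling, the 87 genes took 0.813%, 0.797% and 0.819% of counts in 0Q and 0.777%, 0.766% and 0.792% in 100Q, which did not overlap. With TMM scaling the same sums were 8783, 7591 and 8361 CPM across 0Q against 7822, 7236 and 8110 CPM across 100Q, which did. Whether the sums were apart therefore depended on the scaling.

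**Figure D5:**
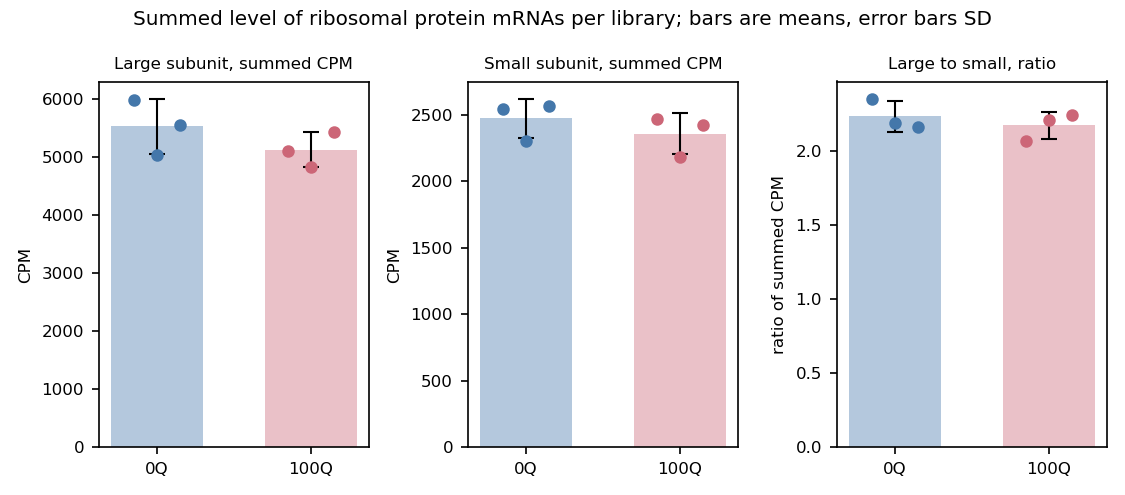
Summed CPM of the 51 large subunit genes and of the 26 small subunit genes and the ratio of these sums, with points for libraries, bars for the means of 0Q and 100Q and error bars for the SD (n = 3). Large subunit sums run from 5043 to 5989 in 0Q and from 4829 to 5430 in 100Q, so the groups overlap.

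The precision of these values followed abundance. For the 24 members at 100 CPM or more the 95% interval reached a median of 0.29 on the log2 scale to either side, and in 22 of them it lay within a 1.5-fold change in both directions. At 30 to 100 CPM the median reach was 0.44 and 13 of 24 lay within that range. Under 30 CPM it was 0.82 and 0 of 39 did. For the 52 members outside that range, among them all 9 factors, a change of 1.5-fold was not excluded by the interval, and the adjusted p says nothing on whether they were equal.

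Ribosomal proteins of the mitochondrion that carry other symbols were examined beside the members. Ptcd3, a small subunit protein with pentatricopeptide repeats, had 23.2, 22.4 and 20.3 CPM across 0Q against 36.3, 33.7 and 31.3 CPM across 100Q. The groups did not overlap, and the log2 change was 0.62 (SE 0.26, edgeR adjusted p = 0.999). Aurkaip1, another small subunit protein, had 169 ± 10.6 and 137 ± 24.7 CPM, a log2 change of -0.30 (SE 0.16), and Chchd1, the most abundant of these 5 genes, had 390.0 ± 30.8 and 387 ± 18.5 CPM (SD, n = 3 each). Of the 5 genes 2 had estimates above 0 and 3 below, and 0 passed the adjusted threshold.

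Factors that build the ribosome and modify its RNA gave 13 values above 0 and 11 below (24 tested of 28, median 0.06) and 0 at an unadjusted p under 0.05. Mterf3, which binds mitochondrial DNA and serves ribosome assembly, had 31.5 ± 10.5 CPM across 0Q against 19.7 ± 5.18 CPM across 100Q, a log2 change of -0.65 (SE 0.31) that became -0.36 without 0Q replicate 3. Mettl15, an rRNA methyltransferase, had 2.59 ± 0.73 and 4.67 ± 1.07 CPM, and Mettl17, an assembly factor, had 37.1 ± 5.28 and 38.5 ± 3.39 CPM (SD, n = 3 each). Other genes of mitochondrial translation and mRNA handling gave 7 above and 6 below among 13 tested of 14, with a median of 0.05. Among these Guf1, a back-translocating elongation factor, lay at a log2 change of 1.27 (SE 0.67) from 2.54 and 6.13 CPM, Qrsl1, a subunit of the amidotransferase that makes Gln-tRNA, at -0.79 (SE 0.50), and Slirp, an RNA-binding protein, at 0.05 (SE 0.15). The estimate for Guf1 was 0.53 without 100Q replicate 3.

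Upstream of these, the 10 tested of 12 genes for mitochondrial transcription and DNA maintenance split into 4 above 0 and 6 below (median -0.09). Tfam, the packaging and transcription factor of mitochondrial DNA, had 6.23, 11.4 and 6.39 CPM across 0Q against 15.0, 20.4 and 10.7 CPM across 100Q. The highest 0Q library exceeded the lowest 100Q library, and the log2 change was 0.91 (SE 0.41, edgeR adjusted p = 0.999). Ssbp1, the single-strand binding protein, lay at 0.09 (SE 0.13) and Twnk, the helicase, at -0.63 (SE 0.65), which became -1.11 without 0Q replicate 1 and -0.28 without 0Q replicate 2. Twnk overlaps Mrpl43 on the opposite strand, and without a stated strand setting their reads cannot be told apart. The 14 tested of 17 mitochondrial aminoacyl-tRNA synthetases gave 6 above and 8 below, with a median of -0.03. Nars2, which charges the Asn tRNA of mitochondria, had 11.1, 6.21 and 3.89 CPM across 0Q against 2.47, 3.58 and 3.22 CPM across 100Q, a log2 change of -1.20 (SE 0.58, edgeR adjusted p = 0.999) that became -0.71 without 0Q replicate 1. Ears2 lay at -1.67 (SE 1.03) from few counts and Rars2, the most abundant, at -0.01 (SE 0.29).

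Inside the organelle, the rRNA of the small subunit, mt-Rnr1, had 2346 ± 176 CPM across 0Q against 2185 ± 502 CPM across 100Q, and that of the large subunit, mt-Rnr2, had 8737 ± 928 and 9382 ± 1486 CPM (SD, n = 3 each). The 13 mRNAs of the mitochondrial genome, which these ribosomes translate, split into 8 above 0 and 5 below (median 0.06). The most abundant, mt-Cytb, lay at a log2 change of -0.06 (SE 0.09), mt-Co3 at 0.18 (SE 0.12), but at 0.06 without 0Q replicate 1, and mt-Nd6 at 0.21 (SE 0.11).

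Promoter sequence was a feature that the choice of genes did not use. RefSeq windows from 250 bases before to 50 bases after the start (GRCm38.p6) were found for 77 members and searched on both strands for core motifs of NRF1 (CGCANGCG), of ETS factors such as GABP (CCGGAAG) and of YY1 (AAGATGGC), factors known for roles at genes of mitochondrial proteins. The NRF1 core stood in 21 members (27.3%) against 9.22% of 27025 genes, the ETS core in 29 (37.7%) against 9.93%, and the YY1 core in 12 (15.6%) against 3.19%. The 27025 genes were all those with a window, without a filter on gene type or level, whereas every member was protein-coding and tested. The backgrounds are thus unlike, and whether the members differed from other expressed protein-coding genes was not tested. Shown are the 100 bases before the start of Mrpl43, which holds 2 kinds of core, and of Tsfm, which holds none of the 3 there, with cores in capitals.
Mrpl43, chr19:45006443-45006542, minus strand: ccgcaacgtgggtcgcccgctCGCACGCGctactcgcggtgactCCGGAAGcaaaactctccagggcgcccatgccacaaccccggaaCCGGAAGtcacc
Tsfm, chr10:127030815-127030914, minus strand: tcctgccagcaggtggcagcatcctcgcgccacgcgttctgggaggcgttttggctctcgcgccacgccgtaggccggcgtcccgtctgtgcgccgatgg

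In Mrpl43 the NRF1 core began 79 bases before the start and the ETS core 56 and 12 bases before it. A match is a description of the letters and shows no binding. Of the member genes, 63 share exon sequence with a gene on the opposite strand and 8 with a gene on the same strand. Opposite-strand neighbours of named members could be abundant, such as Rps27a at Mtif2 (1785 to 2177 CPM) and Nsa2 at Gfm2 (227 to 265 CPM). Tcp1 at Mrpl18 had 234 to 340 CPM and a log2 change of -0.35. What such neighbours added to the members' counts was not tested. At least 1 count was not whole in 41 members, because ambiguous reads were divided between genes. Among the 46 members with whole counts throughout, 32 lay below 0 (median -0.08), and among the other 41 the figures were 31 and -0.08.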

How the data were processed

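Expected counts for each gene and library were deposited by the authors in 1 table, neither pooled nor normalized. Per the submitters' processing notes, FastQC, STAR and RSEM were used on mm39 (GRCm39); no version, annotation release or strand setting was given in the sources used here. No columns were left unused (0). Symbols came from GENCODE mouse release 39, where 502 identifiers had no match. Counts were rounded, filtered with filterByExpr, scaled with TMM factors and tested with edgeR 4.0.16 in R 4.3.3 (robust glmQLFit, glmQLFTest, threshold 0.05, Benjamini-Hochberg over all tested genes). SEs are the absolute log2 fold change over the root of F. The procedure was tested on simulated data. DESeq2 1.42.0, limma-voom (limma 3.58.1), other scalings and filters, a replicate block and each library left out were alternatives.

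The members, roles, pathway lists and markers were chosen with earlier results of these data known. Named were all 9 factors, the 5 ribosomal proteins with the smallest p in each direction, the 3 highest and 2 lowest of each subunit per kilobase, the Mrps18 paralogs, and in each pathway list the 2 smallest p and the most abundant gene, with both mitochondrial rRNAs. Mrps17, Mrps36, Mrps22, Mrps24, Mrps34, Mrpl15, Mrpl21, Mrpl42, Mrpl1 and Mrps21 were named after their values were seen.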

Additional observations from a re-analysis of the deposited data

How the results depend on the processing

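No member passed the adjusted threshold under any alternative run (0 in all). Over all genes the count of 0 became 2 without 0Q replicate 1 and 1 without 0Q replicate 2 (leaving out 1 library: 0 to 2), and 1 without both 0Q replicate 1 and 100Q replicate 3, a setting chosen after the data were seen. Members at an unadjusted p under 0.05 numbered 2 to 4 with 1 library left out and 1, Tsfm, with those 2 libraries left out. Over all tested genes the counts with 1 library left out ran from 193 of 11096 (100Q replicate 2) to 662 of 10975 (0Q replicate 2). With those 2 libraries left out the count was 337 of 10631. Members whose groups do not overlap numbered 5 (5.75%, against 8.24% of all tested genes), and 8 with library totals alone. They numbered 9 to 21 with 1 library left out and 25 with 2 left out, where fewer libraries make overlap rarer. The shares of all tested genes under these other settings are not given here. The counts are therefore not read as a result about the members. The median of the factors moved from -0.12 to 0.039 without 0Q replicate 1 (range -0.21 to 0.039 with 1 library left out) and to 0.083 without both, and the cause was not tested. The medians of all members ran from -0.15 to -0.04 with 1 library left out. Over the named genes 25 of 306 estimates changed sign with 1 library left out and 24 of 344 under other settings, none of them called, and 42 of the 51 named estimates moved by over 1.5 times or changed sign without at least 1 of the libraries. Deviations from the group means had same-number correlations of 0.03, 0.08 and -0.01, and of -0.10 to 0.09 for unlike replicate numbers. With 3 libraries a group such values cannot exclude a pairing, and the labels state none. In a fit that took the replicate as a block 0 genes passed, 421 genes and 3 members had an unadjusted p under 0.05, and 1 of 51 named estimates changed sign. Depth limits the members under 30 CPM, none of which had an interval within 1.5-fold.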
